A study of Mus musculus with 9 samples.

Results

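The splicing factor genes described here are the protein-coding genes of the deposited mouse gene table whose symbol begins with Srsf and a digit, Hnrn, Sf3a, Sf3b, Snrp or U2af. This rule used names alone and found 55 of the 54532 genes in the table. They comprise 12 Sm and snRNP-specific proteins, 9 subunits of SF3A and SF3B, 3 U2AF genes, 11 SR proteins and 20 hnRNP proteins. Of these, 52 had a mean level of at least 0.5 FPKM (fragments for each kilobase of a gene's length, with library depth scaled out) over all libraries and entered the test.

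Most mouse genes are copied into RNA with introns, which the spliceosome cuts out. Small nuclear ribonucleoproteins (snRNPs) carry a ring of Sm proteins on an RNA that reads the splice sites or the branch site. U2AF marks the end of the intron, and SF3A and SF3B hold the U2 snRNP on the branch site. SR proteins bind exons and mostly promote their inclusion, whereas many hnRNP proteins bind introns or exons and hold splicing back, so the balance of the families helps to set which exons a cell uses. Genes of both families are known to tune their own levels through exons or introns that send the transcript to nonsense-mediated decay.

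RNA-seq was performed on 9 libraries of HT22 cells, an immortalized wild-type mouse line from hippocampal neurons, in 3 groups of 3. Control cells received no treatment. OGP cells went through 2 h of oxygen-glucose deprivation (OGD) and 24 h of reoxygenation with PBS, and OGE cells had the same OGD with hiPS-MSC-EVs, extracellular vesicles shed by mesenchymal stem cells that were made from human iPS cells. OGD imitates the loss of blood supply in a stroke, and the comparisons ask which mRNAs differed after OGD and which differed when vesicles were given. The paper names a vesicle dose for HT22 cells but does not repeat it for the sequenced ones. The sources also differ on the serum after OGD, so OGP and OGE may differ in serum from each other and from control. A part of serum cannot be told apart from that of OGD or of vesicles in these comparisons. The libraries held 15026700 to 19476806 reads in genes, of which the splicing factor genes took 1.25% to 1.40%. Mitochondrial transcripts took 1.10% to 2.31% of the reads in control, 2.45% to 3.25% in OGP and 2.03% to 2.90% in OGE libraries.

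The label of a neuronal line was met in part by markers. Of 16 neuron markers, 3 passed the level filter (Tubb3, Eno2 and Map2), and Dcx and Gad1 were at 0 in every library. Of 10 mesenchymal markers, 9 passed, with Col1a1, Vim and Fn1 among them. None of 7 oligodendrocyte markers passed, nor did the defining genes Aqp4 of astrocytes and Itgam of microglia, which were at 0. Of the astrocyte markers 2 of 7 passed the filter (Gja1 and Slc1a3), as did 1 of 7 microglia markers (Tmem119) and 1 of 6 endothelial markers (Flt1). In OGP against control, Gja1 (-1.13), Slc1a3 (-0.98) and Flt1 (-1.12) were lower DEGs on the log2 scale, and 4 mesenchymal markers were DEGs, Col3a1 higher and Col1a1, Fn1 and Pdgfra lower (a DEG is defined with the test below). Of the 3 neuron markers tested, 1 was a lower DEG (-0.91) in the same comparison. The others changed by 0.43 and 0.54, and 1 of them passed the test as higher without being a DEG. In OGE against control, 1 neuron marker was a higher DEG (0.78). Between OGE and OGP, 1 neuron marker passed as higher and 1 as lower, with 0 DEGs. In OGE against OGP, Tmem119 was a lower DEG (-0.90). The 2 astrocyte markers tested were DEGs in opposite directions there (1.11 and -0.64). Of the 9 mesenchymal markers tested, 3 were higher DEGs and 1 was a lower DEG in OGE against OGP. The summed level of the astrocyte list was 38.2 to 44.5 FPKM in control, 18.2 to 19.5 in OGP and 29.5 to 38.4 in OGE libraries, and that of the mesenchymal list 1542 to 1895, 1144 to 1263 and 1177 to 1344. The endothelial list summed to 3.20 to 3.26, 1.16 to 1.42 and 1.41 to 1.68 FPKM, and the microglia list to 12.2 to 17.4, 16.5 to 18.99 and 9.02 to 10.2. The neuron list summed to 13.8 to 16.5, 15.9 to 16.7 and 18.5 to 22.5 FPKM, and the oligodendrocyte list stayed at or under 0.906. The part of these markers in the results on splicing factor genes was not tested. Since each library is bulk RNA, fewer cells of a kind and less RNA per cell cannot be told apart. The FPKM are sums over all transcripts of a gene, so a change in exon use is not visible in them.

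Control replicate 1 stood apart from the other libraries on the third principal component, with a score of 33.1 against -15.0 and -11.0 in control replicates 2 and 3. The difference reached the splicing factor genes. Against the mean of the other controls on the log2 scale, 10 of the 52 members were lower by at least 1.5-fold in control replicate 1 and none was higher. That is 19.2% of the members, all in 1 direction. Of all 13245 genes tested, 967 were lower and 667 higher by at least 1.5-fold, or 12.3% with both directions joined. Counts of members are therefore given below with and without that library. OGE replicate 3 lay lowest on the same component, at -19.4, and no member differed by 1.5-fold between it and the other OGE libraries.

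A gene passed the test here where limma gave an adjusted p of at most 0.05 over all 13245 genes, and it was a differentially expressed gene (DEG) where the fold was also at least 1.5. Of the 52 splicing factor genes, 15 passed in OGP against control, 6 higher and 9 lower. This share of 28.8% stood beside 29.8% of all genes tested (13.8% higher and 16% lower). The libraries of OGP and control did not overlap for 22 members, or 42.3%, against 42.9% of all genes. The DEGs were Srsf5, which rose, and Srsf9 and Hnrnpd, which fell. They make 5.77% of the members against 12.1% of all genes. For 36 members, or 69.2%, the 95% interval of the change lay wholly within 1.5-fold. It did so for 53.2% of all genes and 60.4% of the protein-coding genes tested. The median log2 fold change of the members was -0.07 and that of all genes 0.01. The members' median was -0.15 without control replicate 1 and 0.01 without control replicate 2.

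Calls ran in both directions within the SR and hnRNP families. Srsf5, Srsf6 and Hnrnph1 passed as higher in both OGP and OGE, and Srsf9, Hnrnpd, Hnrnpdl and Snrpa1 passed as lower in both. The OGP and OGE comparisons share the control libraries, so these are not independent tests. RefSeq promoter windows of assembly GRCm38.p6 matched 45 of the tested members. The 250 bases before the start of transcription are shown for those of these genes whose window began within 50 bases of the gene's start in the table, because these genes moved in the same direction in both OGD groups. Capitals mark GGGCGG or its complement CCGCCC (the GC box that Sp1 factors bind), CCGGAAG or CTTCCGG (a core that ETS factors bind) and CCAAT or ATTGG (bound by NF-Y).
Srsf5 (chr12:80945249-80945498, plus strand): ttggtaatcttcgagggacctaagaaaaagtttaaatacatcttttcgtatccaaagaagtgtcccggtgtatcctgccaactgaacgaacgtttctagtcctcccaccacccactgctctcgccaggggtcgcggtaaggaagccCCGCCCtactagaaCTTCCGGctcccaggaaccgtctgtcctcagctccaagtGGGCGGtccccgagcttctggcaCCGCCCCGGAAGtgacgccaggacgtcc
Srsf6 (chr2:162931258-162931507, plus strand): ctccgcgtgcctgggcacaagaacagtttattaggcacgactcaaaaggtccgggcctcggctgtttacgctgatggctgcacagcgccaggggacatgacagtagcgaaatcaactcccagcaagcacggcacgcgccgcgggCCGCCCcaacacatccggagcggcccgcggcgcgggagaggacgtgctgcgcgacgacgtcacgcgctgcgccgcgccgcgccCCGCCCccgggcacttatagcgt
Hnrnph1 (chr11:50376740-50376989, plus strand): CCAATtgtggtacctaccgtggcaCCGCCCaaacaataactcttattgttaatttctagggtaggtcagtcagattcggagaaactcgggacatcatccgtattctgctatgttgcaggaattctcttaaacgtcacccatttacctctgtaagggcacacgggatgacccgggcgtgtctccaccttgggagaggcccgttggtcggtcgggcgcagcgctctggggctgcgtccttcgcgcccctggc
Srsf9 (chr5:115326927-115327176, plus strand): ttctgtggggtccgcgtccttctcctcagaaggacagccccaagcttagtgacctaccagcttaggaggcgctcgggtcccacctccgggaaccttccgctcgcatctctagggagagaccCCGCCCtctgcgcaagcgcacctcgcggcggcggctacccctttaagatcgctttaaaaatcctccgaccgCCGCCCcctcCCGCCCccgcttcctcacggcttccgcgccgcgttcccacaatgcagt
Hnrnpd (chr5:99978939-99979188, minus strand): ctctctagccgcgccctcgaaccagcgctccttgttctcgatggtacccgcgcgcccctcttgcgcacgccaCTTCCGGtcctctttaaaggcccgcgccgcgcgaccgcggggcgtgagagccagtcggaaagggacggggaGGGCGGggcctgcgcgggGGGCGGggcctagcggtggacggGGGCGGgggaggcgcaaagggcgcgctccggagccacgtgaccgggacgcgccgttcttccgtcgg

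All 5 windows held a GC box, 3 each in Srsf5, Srsf9 and Hnrnpd, 2 in Srsf6 and 1 in Hnrnph1. The ETS core appeared in Srsf5 and Hnrnpd, which moved in opposite directions. In Srsf5 the last GC box and the last ETS core overlap by a base. Among the 45 members with a window, 71.1% held GGGCGG, 46.7% CCAAT and 33.3% CCGGAAG on either strand. Of 8692 protein-coding genes tested that had a window, 62.5%, 37.8% and 15.1% did so. TATAAA stood in 11.1% of the members' windows and in 5.83% of all, CACGTG in 6.67% and 8.82%, TGACGTCA in 4.44% and 2.89%, and ACGTGC in 8.89% and 7.03%.  AAGATGGC stood in 2.22% and 2.05%, and GAANNTTC in 8.89% and 4.98%. The median share of G and C was 60.8% over the members and 60.4% over all. These matches describe letters alone.

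Srsf5, an SR protein that binds exonic enhancers, lies at chr12:80945504-80950507 of mm10 (ENSMUSG00000021134). Its levels were 42.2, 49.5 and 47.4 FPKM in the control libraries, 76.5, 81.0 and 81.6 in OGP and 73.8, 77.2 and 80.5 in OGE. The lowest OGD library thus lay well above the highest control, and OGP and OGE overlapped. The mean was 46.3 FPKM ± 3.76 in control, 79.7 ± 2.81 in OGP and 77.2 ± 3.39 in OGE (SD, n = 3 each). Srsf5 rose 1.72-fold in OGP (log2 fold change 0.78, SE 0.08, adjusted p = 0.000213 by limma) and was 1.66-fold higher in OGE than in control (0.73, adjusted p = 0.000234). Between OGE and OGP the log2 difference was -0.05, with a 95% interval of -0.23 to 0.13. Under the 21 alternative settings its log2 fold change in OGP stayed between 0.71 and 0.83.

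Srsf6 (chr2:162931528-162937121, ENSMUSG00000016921), another exon-binding SR protein, had 61.2, 58.2 and 54.6 FPKM in control. It had 74.4, 77.1 and 82.7 in OGP and 83.3, 86.6 and 73.9 in OGE. Every OGD library was higher than every control library. The log2 fold change was 0.43 in OGP (SE 0.09, adjusted p = 0.00607) and 0.48 in OGE against control (adjusted p = 0.0036). Hnrnph1 (chr11:50376990-50386528, ENSMUSG00000007850), which binds runs of G near splice sites, had 66.0, 60.0 and 62.6 FPKM in control, 81.2, 85.7 and 86.1 in OGP and 92.3, 89.8 and 88.6 in OGE. All 3 OGE libraries exceeded all OGP libraries, yet the difference between them did not pass (0.10, 95% interval -0.06 to 0.25). Against control it rose by 0.42 in OGP (adjusted p = 0.00215) and 0.52 in OGE (adjusted p = 0.00067) on the log2 scale.

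Srsf9 (chr5:115327177-115333080, ENSMUSG00000029538), a small SR protein with a short RS domain, went the other way. Its levels were 47.1, 76.6 and 65.9 FPKM in control, 38.8, 39.3 and 35.8 in OGP and 40.1, 39.0 and 39.7 in OGE. The 6 OGD libraries lay close together below all controls, and control replicate 1 was the lowest of the controls. Srsf9 fell by 0.70 in OGP (SE 0.15, adjusted p = 0.00805) and by 0.64 in OGE (adjusted p = 0.0137) on the log2 scale. Without control replicate 1 the log2 fold changes were -0.90 and -0.84. Without control replicate 2 it still passed in OGP, with a log2 fold change of -0.55, under 1.5-fold. In OGE its adjusted p was 0.0505 without control replicate 3. Without control replicate 2, or under quantile normalization, it passed in OGE at under 1.5-fold.

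Hnrnpd (chr5:99955935-99978938, ENSMUSG00000000568) encodes AUF1, which binds AU-rich elements and hastens the decay of many mRNAs. It had 38.0, 42.7 and 34.6 FPKM in control, 24.0, 24.7 and 25.9 in OGP and 26.8, 28.8 and 26.7 in OGE. The OGP libraries were all lower than the OGE libraries, and both lay under the controls. Hnrnpd fell by 0.61 in OGP (SE 0.09, adjusted p = 0.0011) and by 0.47 in OGE (adjusted p = 0.00425) on the log2 scale. Without control replicate 2 it still passed in OGP, but its log2 fold change of -0.54 was under 1.5-fold. OGE against OGP gave 0.14 (95% interval -0.06 to 0.34), which did not pass. Hnrnpdl, its near relative, had 56.97, 69.0 and 64.3 FPKM in control, 49.7, 51.8 and 54.7 in OGP and 50.2, 48.1 and 50.5 in OGE. It fell by 0.28 (adjusted p = 0.034) and 0.35 (adjusted p = 0.0158), although the OGP call was lost under 10 of 21 alternatives.

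**Figure D1:**
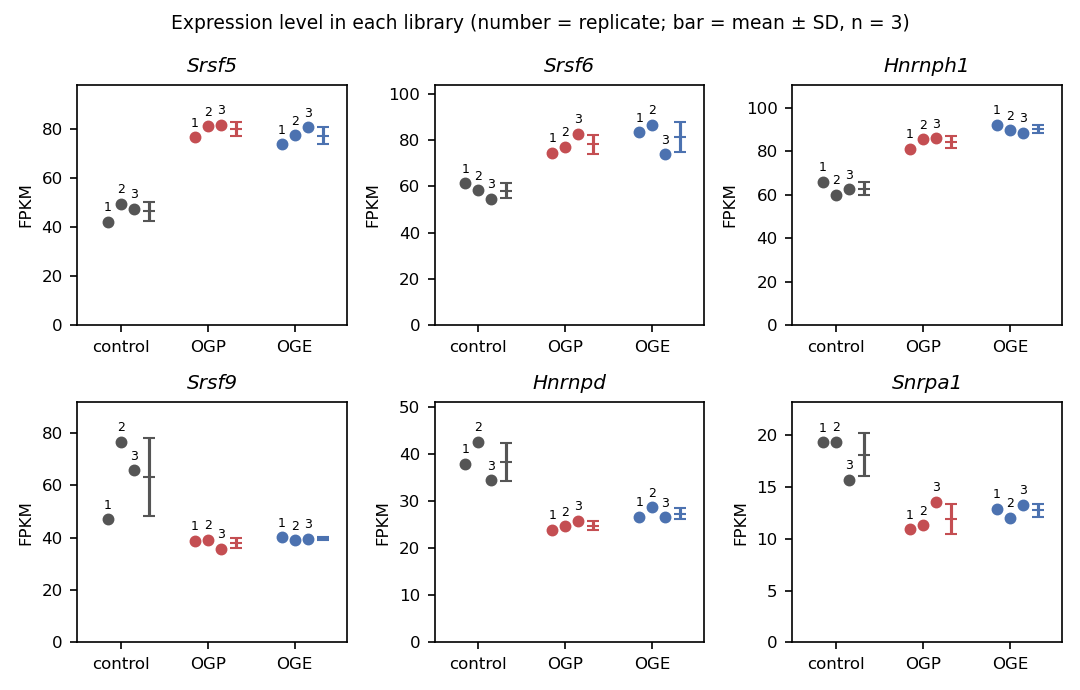
FPKM in each library of control, OGP and OGE cells for the 3 members that were higher (top row) and 3 of those that were lower (bottom row) after OGD in both groups, with numbers for replicates and bars for the mean ± SD of 3 libraries. The OGD libraries do not overlap the controls in any panel, and control replicate 1 is the lowest control of Srsf9 at 47.1 FPKM.

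Among the Sm and snRNP-specific proteins, 1 of 11 tested passed in OGP against control (9.09%, beside 29.8% of all genes) and none was a DEG. With control replicate 1 left out, 6 of the 11 passed, 2 higher and 4 lower, beside 38.5% of all genes. Snrpf was a DEG in that fit. Snrpa1, a protein found in the U2 snRNP alone (chr7:66059003-66074587, ENSMUSG00000030512), had 19.3, 19.3 and 15.7 FPKM in control. It had 10.9, 11.3 and 13.6 in OGP and 12.9, 12.04 and 13.3 in OGE. Every OGD library was under every control. Snrpa1 fell by 0.58 in OGP (SE 0.11, adjusted p = 0.00445) and by 0.49 in OGE (adjusted p = 0.0113) on the log2 scale. Its partner Snrpb2, with which it binds the U2 snRNA, did not pass with all libraries, 0.29 higher in OGP on the log2 scale (SE 0.14, adjusted p = 0.141). Without control replicate 1, Snrpb2 passed as higher by limma (0.43, adjusted p = 0.0174).

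Several Sm ring proteins varied widely among the control libraries. Snrpf had 28.7, 62.8 and 53.6 FPKM in control, 33.3, 25.4 and 21.8 in OGP and 26.1, 24.1 and 36.7 in OGE. Only control replicate 1 overlapped the OGD libraries. The log2 fold change of -0.79 in OGP had an SE of 0.29 and an adjusted p of 0.0654, and without control replicate 1 it was -1.12 with an adjusted p of 0.004. Snrpd2 had 28.9, 73.3 and 63.7 FPKM in control, 58.2, 57.7 and 58.5 in OGP and 43.8, 35.7 and 49.9 in OGE. Its change in OGP was 0.18 (SE 0.29) with all libraries and -0.23 without control replicate 1, so the direction rested on that library. Snrpg had 33.8, 74.9 and 68.9 FPKM in control, 70.3, 70.1 and 74.7 in OGP and 57.1, 53.0 and 61.4 in OGE, and its change of 0.36 in OGP did not pass (adjusted p = 0.313). Snrpd1 had the highest mean level of the group, with 101 to 150.1 FPKM over the libraries. Snrpe ranged from 69.3 to 111 FPKM, and part of its reads are uncertain because a pseudogene of Snrpe with a mean of 36.0 FPKM is counted beside it. In counted reads this part is smaller than the FPKM show. All 11 pseudogenes of members together held at most 0.113% of the members' reads in any library. The members had 207762 to 251966 reads, of which Snrpe had 1619 to 2474.

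In control replicate 1 the log2 level was lower than the mean of the other controls by 1.23 in Snrpd2, 1.08 in Snrpg, 1.00 in Snrpf, 0.76 in Snrpb and 0.70 in Snrpd3. These are 5 of the 11 Sm and snRNP-specific genes, or 45.5%. The hnRNP genes Hnrnpa0 (-1.09) and Hnrnpab (-0.83), the SF3 genes Sf3a2 (-0.82) and Sf3b5 (-0.64) and the SR gene Srsf9 (-0.59) made up the rest of the 10. The other way, Snrpd1 was 0.48 above the other controls, which was the highest difference of any member. The annotated gene length and this difference had a Spearman's rho of 0.23 across all genes and 0.38 across the 52 members, which share the libraries and are not independent. What set the library apart was not tested.

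Without control replicate 1, 29 of the 52 members passed in OGP against control, 10 higher and 19 lower. This share of 55.8% stood beside 38.5% of all genes. In the same fit 7 members were DEGs, with Srsf5 up and Snrpf, Srsf9, Hnrnpab, Hnrnpa0, Hnrnpd and Sf3a2 down. The share of all genes that were DEGs in that fit is not given here. The larger number of DEGs is therefore not read as a result on the members. Leaving out control replicate 3 gave 9 members that passed, and leaving out OGP replicate 2 or OGP replicate 3 gave 8. For these fits no share of all genes is given, so the counts may follow a change over all genes. Hnrnpa0 is an example of what control replicate 1 changed. It had 68.1, 152 and 139 FPKM in control, 103, 92.5 and 88.4 in OGP and 86.1, 88.4 and 99.0 in OGE. Its log2 fold change in OGP was -0.26 with all libraries (adjusted p = 0.483) and -0.62 without control replicate 1 (adjusted p = 0.0016).

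**Figure D2:**
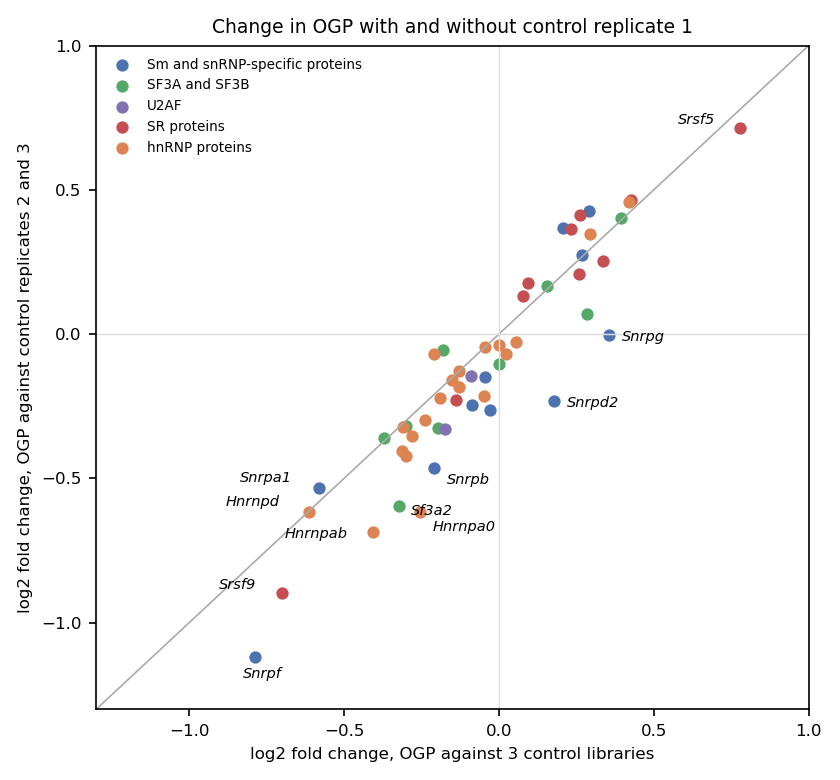
Log2 fold change of the 52 tested splicing factor genes in OGP against all 3 control libraries (horizontal axis) and against control replicates 2 and 3 alone (vertical axis), with colours for the role of each gene and a line where both are equal. Srsf5, Hnrnpd and Snrpa1 stay near the line, whereas Snrpd2 moves from 0.18 to -0.23 and Hnrnpa0 from -0.26 to -0.62.

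The 9 SF3 subunits gave 3 calls in OGP against control, or 33.3% beside 29.8% of all genes. They gave 5 without control replicate 1, 1 higher and 4 lower, beside 38.5% of all genes in that fit. Sf3b3, a scaffold of SF3B, had 40.8, 39.8 and 39.8 FPKM in control, 32.5, 29.9 and 30.3 in OGP and 35.5, 36.2 and 35.8 in OGE. The groups did not overlap, and OGE lay between the others. It fell by 0.37 in OGP (SE 0.06, adjusted p = 0.0027) on the log2 scale, a call that was kept under all 21 alternatives. Its span overlaps that of Cog4 on the opposite strand, with a mean of 20.0 FPKM, and whether the counting used strand is not stated. Sf3a1, an SF3A subunit that also touches the U1 snRNP, had 22.7, 24.0 and 23.2 FPKM in control, 20.1, 17.9 and 18.6 in OGP and 22.2, 22.1 and 22.5 in OGE, and fell by 0.30 in OGP (adjusted p = 0.0102).

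Sf3b6, the p14 subunit that touches the branch site, had 28.8, 31.5 and 25.6 FPKM in control, 32.7, 40.0 and 40.9 in OGP and 32.1, 30.7 and 29.8 in OGE. It rose in OGP by 0.40 on the log2 scale (SE 0.11, adjusted p = 0.022), a call lost under 4 of 21 alternatives. Subunits of one complex thus passed in opposite directions. Sf3b1, the largest subunit and the target of several splicing inhibitors, had a change of -0.18 that did not pass (95% interval -0.44 to 0.08). Sf3b2 had the highest level of the group, from 75.3 to 97.5 FPKM, and a change of 0.00 with an interval of -0.23 to 0.24.

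U2AF, which recognizes the polypyrimidine tract and the AG that ends an intron, gave no call in any comparison with all libraries. U2af1 had 101, 115 and 112 FPKM in control, 97.7, 102 and 109 in OGP and 97.1, 89.3 and 101 in OGE. All OGE libraries were under the control libraries, though the highest OGE value and the lowest control value are nearly equal, and the log2 difference was -0.19 (SE 0.08, adjusted p = 0.133). Without control replicate 1 this difference of U2af1 was -0.25 and passed by limma (adjusted p = 0.0346). U2af2 had 48.5, 67.5 and 66.6 FPKM in control, 55.6, 51.5 and 52.9 in OGP and 52.7, 52.7 and 58.3 in OGE, where control replicate 1 was the lowest value. Its change in OGP was -0.17 with all libraries (adjusted p = 0.321) and -0.33 without control replicate 1 (adjusted p = 0.0078), where it passed. U2af1l4, a paralogue of U2af1, stayed at or under 0.295 FPKM and was not tested.

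Of the 10 SR proteins tested, 4 passed in OGP against control, with Srsf5, Srsf6 and Srsf7 up and Srsf9 down. This is 40% beside 29.8% of all genes. Without control replicate 1, 6 passed, with Srsf10 and Srsf11 added as higher, beside 38.5% of all genes. With all libraries the family's median log2 fold change was 0.25, against 0.01 for all genes. Srsf7, a zinc knuckle SR protein that also links mRNA to export, had 70.6, 88.6 and 79.8 FPKM in control, 93.7, 102 and 106 in OGP and 85.3, 82.0 and 87.0 in OGE. It rose in OGP by 0.34 (SE 0.09, adjusted p = 0.0254), a call lost under 4 of the 21 alternatives. Srsf3, which shares that export role, had 50.5, 57.6 and 54.7 FPKM in control, 58.3, 68.1 and 69.2 in OGP and 56.8, 55.8 and 52.2 in OGE. Every OGP library was above every control and OGE library, and the log2 fold change of 0.26 had an adjusted p of 0.0554. Srsf1 and Srsf2, the most studied members, did not pass in any comparison with all libraries. Srsf2 had the highest SR level, from 92.5 to 119 FPKM, with a change of 0.08 in OGP (95% interval -0.13 to 0.29). Srsf4 had the lowest of those tested, from 6.56 to 8.67 FPKM, and Srsf12 did not exceed 0.036 FPKM and was not tested.

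The mix of SR mRNAs differed between control and OGD libraries. The summed SR level was 529 to 570.04 FPKM in control, 594 to 653 in OGP and 591 to 632 in OGE. Srsf5 took 7.71% to 8.95% of that sum in control libraries, 12.5% to 12.9% in OGP and 11.9% to 13.6% in OGE. Srsf9 took 8.62% to 13.4% in control, 5.48% to 6.54% in OGP and 6.18% to 6.71% in OGE. Per length of gene, Srsf9 was thus the more abundant of the pair in each control library and Srsf5 in each OGD library, and the shares were closest in control replicate 1, at 8.62% against 7.71%.

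**Figure D3:**
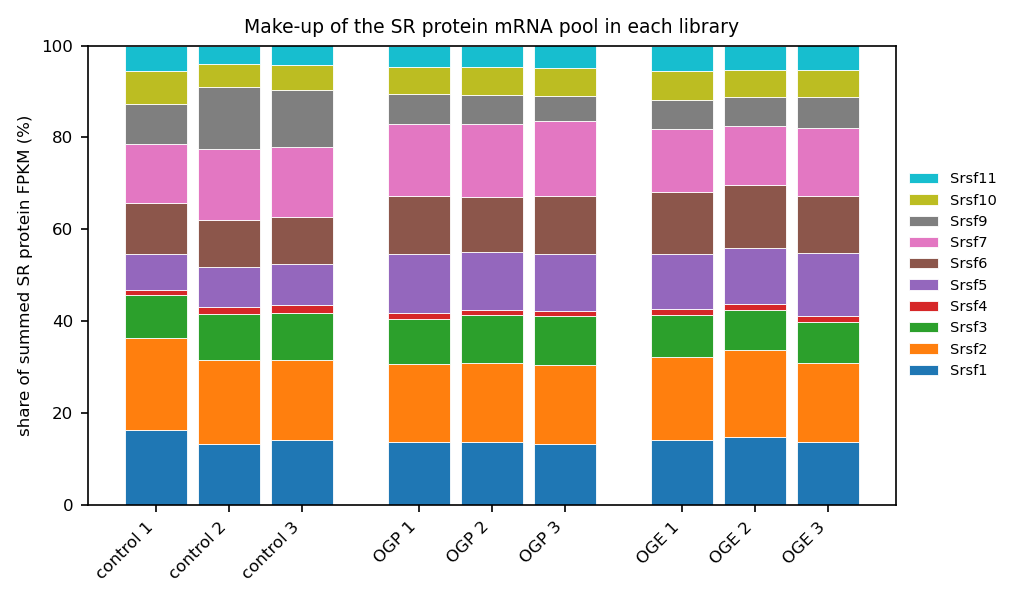
Share of each SR gene in the summed FPKM of the 10 tested SR genes plus Srsf12, which is too low to see, with a stacked bar for each of the 9 libraries. Srsf5 (purple) widens from 7.71% to 8.95% in control to at least 11.9% in every OGD library, while Srsf9 (grey) narrows to between 5.48% and 6.71%.

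Of the 20 hnRNP proteins, 7 passed in OGP against control, 2 higher and 5 lower, with a family median of -0.17. This is 35% beside 29.8% of all genes. When control replicate 1 was left out, 11 of the 20 passed, 2 higher and 9 lower, beside 38.5% of all genes. Beside Hnrnph1, Hnrnpc rose, a protein that binds uridine tracts and counters U2AF. It had 81.1, 73.0 and 72.4 FPKM in control, 85.03, 94.5 and 99.1 in OGP and 86.0, 85.1 and 80.5 in OGE, and the change in OGP was 0.30 (adjusted p = 0.0265), a call lost under 7 of the 21 alternatives. Hnrnpll, a regulator of exon use in lymphocytes, had 11.2, 11.9 and 11.1 FPKM in control, 8.81, 9.66 and 8.86 in OGP and 9.63, 10.5 and 9.34 in OGE. It fell by 0.31 in OGP (SE 0.07, adjusted p = 0.0133). Hnrnpul2 fell by 0.31 (adjusted p = 0.0383) and Hnrnpl by 0.24 (adjusted p = 0.0417), calls that were lost under 9 and 11 of the 21 alternatives. Hnrnpa1, the most abundant member, ranged from 216 to 266 FPKM, and its change in OGP was 0.02 with a 95% interval of -0.22 to 0.26. Hnrnph3 had a low level, from 6.45 to 8.49 FPKM, and did not pass in any comparison with all libraries. None of the members Hnrnpk, Hnrnpf, Hnrnpm, Hnrnpr or Hnrnpa2b1 passed in OGP, and their changes lay between -0.15 and 0.05.

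With vesicles in place of PBS, few splicing factor genes differed. In OGE against OGP, 3 of the 52 passed, all higher, or 5.77% against 20.8% of all genes tested (10.6% higher and 10.2% lower). The libraries did not overlap for 17 members, or 32.7%, against 45.4% of all genes. By limma 0 members were DEGs, whereas 8.12% of all genes were, and voom on the reads recovered from the FPKM also gave 0. At an unadjusted p under 0.05, 3 members were higher and 4 lower, beside 2375 higher and 2226 lower of all 13245 genes. For 46 members, or 88.5%, the 95% interval lay within 1.5-fold, against 59.5% of all genes and 67.5% of the protein-coding genes tested. The 3 genes were Hnrnpu, Sf3a1 and Sf3b3. Hnrnpu, a scaffold attachment factor of chromatin, had 62.5, 62.6 and 64.7 FPKM in OGP and 74.2, 74.7 and 72.7 in OGE, while control libraries had 69.0, 73.6 and 74.3. OGP lay under both other groups, which overlapped. The log2 difference of OGE from OGP was 0.22 (SE 0.06, adjusted p = 0.038), and that of OGP from control was -0.19 (adjusted p = 0.0519).

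Sf3a1 was 0.23 higher (adjusted p = 0.0391) and Sf3b3 0.21 higher (adjusted p = 0.0441) in OGE than in OGP on the log2 scale. Against control, their OGE differences were -0.07 (95% interval -0.22 to 0.09) and -0.16 (-0.30 to -0.02, adjusted p = 0.0971). The comparisons share the OGP libraries, so the drop in OGP and the gain in OGE are not separate evidence. Each of the 3 calls was lost under 7 or 8 of the 21 alternatives. Sf3a3 came closest on the other side, with 46.8, 49.2 and 51.3 FPKM in OGP and 42.7, 43.7 and 39.9 in OGE, which did not overlap. Its log2 difference was -0.22 with an adjusted p of 0.0506.

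Other members leaned lower in OGE without passing. Srsf7 differed by -0.24 (adjusted p = 0.101), Srsf3 by -0.24 (adjusted p = 0.0885), Sf3b6 by -0.28 (adjusted p = 0.0915) and Sf3b5, a small SF3B subunit, by -0.29 (adjusted p = 0.232), and none of these 4 overlapped between the groups. Snrpd2 had the lowest difference, -0.44 (SE 0.29, adjusted p = 0.329). Without control replicate 1, where the SE of Snrpd2 dropped from 0.29 to 0.11, 10 members passed, 3 higher and 7 lower (19.2% against 30.1% of all genes). The 7 were Snrpd2, Snrpg, Sf3b5, Snrpd3, Srsf7, Srsf3 and Sf3a3. No member was a DEG in that fit. With control replicate 3, OGP replicate 2, OGP replicate 3 or any single OGE library left out, 0 members passed, and without OGP replicate 1 there were 5. Shares of all genes in these fits are not given here, so the counts may follow a change over all genes.

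In OGE against control, 8 of 52 members passed, 4 higher and 4 lower, or 15.4% against 24.8% of all genes (11.7% higher and 13.1% lower). The libraries did not overlap for 14 members, or 26.9%, against 38.2% of all genes. The 95% interval lay within 1.5-fold for 37, or 71.2%, against 56.4% of all genes and 64% of the protein-coding genes tested. Srsf5 and Srsf9 were the DEGs, or 3.85% against 11.5%. Of those that passed, Srsf11 did so in this comparison alone among the 3. It is an SR-related protein with links to microexon splicing, and it had 30.8, 22.5 and 22.1 FPKM in control, 27.4, 30.6 and 31.7 in OGP and 34.6, 33.2 and 31.9 in OGE. Its OGE libraries were all above the controls, of which replicate 1 was far above the other two. The log2 difference was 0.41 (SE 0.12, adjusted p = 0.0396) and the call was lost under 10 of 21 alternatives. Without control replicate 1, 21 members passed, 5 higher and 16 lower (40.4% against 37.6% of all genes). Among the 16 were 7 of the 11 Sm and snRNP-specific genes tested, of which none passed as higher, and both U2AF genes tested. That fit gave 6 DEGs. These were Srsf5 up and Snrpf, Srsf9, Hnrnpa0, Snrpd2 and Hnrnpab down, without a DEG share of all genes to set beside them. Without control replicate 3, 5 members passed, a count given without the share of all genes in that fit.

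**Figure D4:**
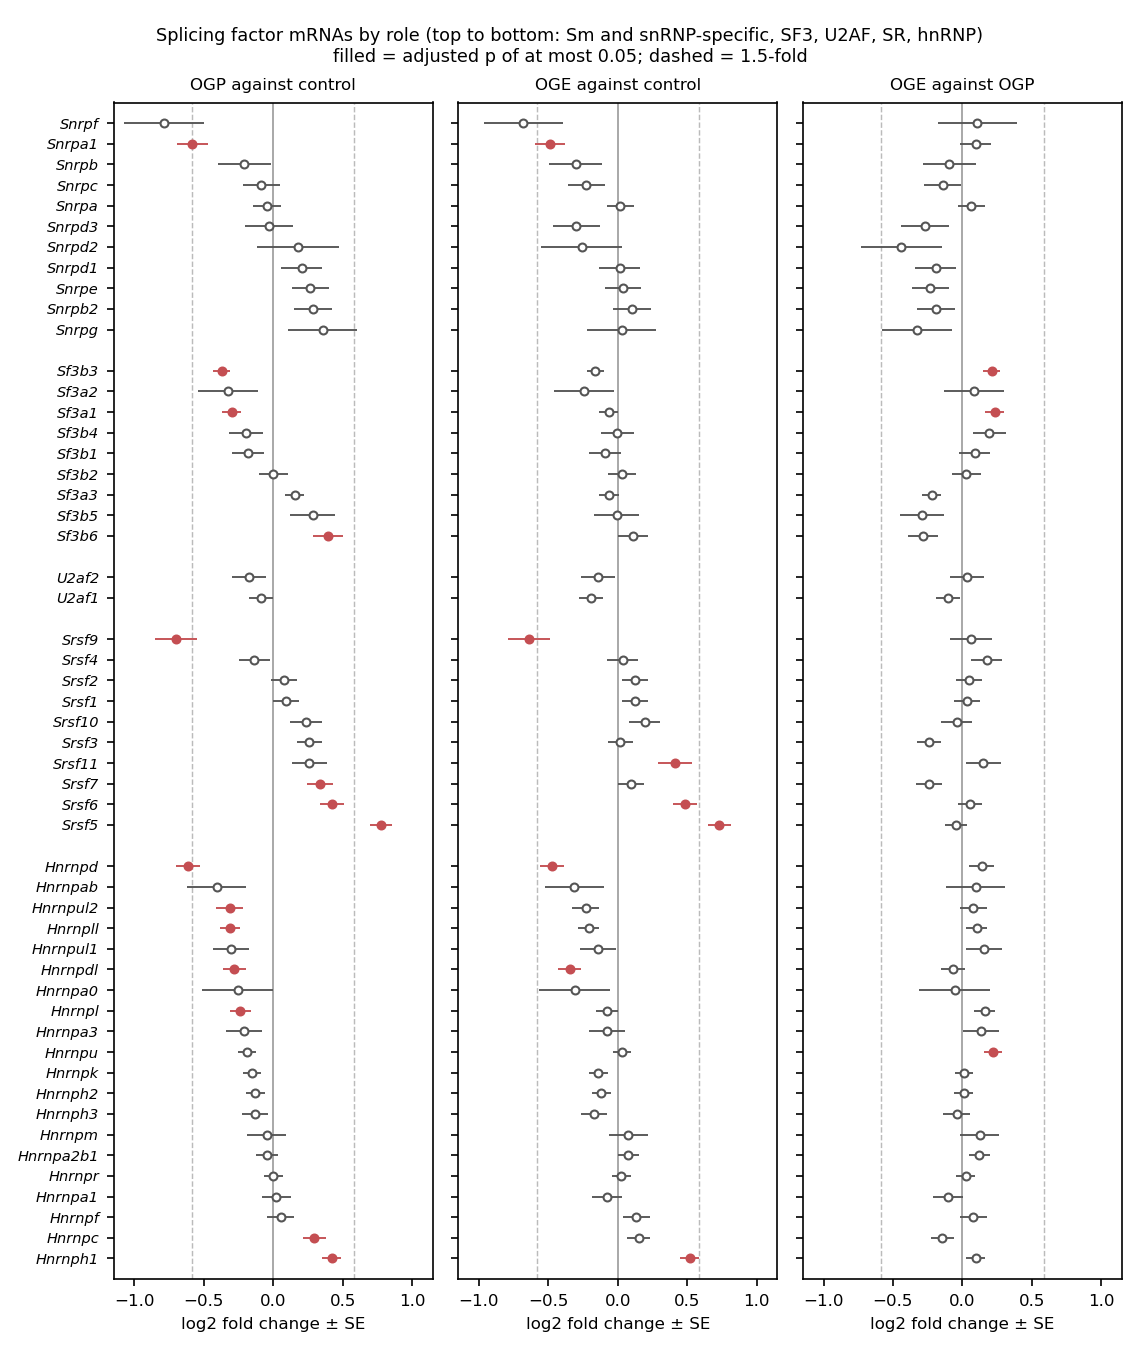
Log2 fold change ± SE of the 52 tested splicing factor genes in OGP against control, OGE against control and OGE against OGP, grouped by role and ordered within each role by the first comparison. Filled points passed the test at an adjusted p of at most 0.05 (15, 8 and 3 genes), and dashed lines mark a 1.5-fold change.

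Snrpn, which encodes the Sm N protein of brain and heart, was listed at 0 reads in all 9 libraries. At these depths, 3 reads in a library could still have been missed by chance, a limit that covers counting error only. Its span overlaps Snurf and Gm38393 on the same strand, which were also listed at 0, so reads shared among them may not have been counted for any. Overlap with other expressed genes touched 15 of the 52 tested members, 5 on the same strand and 12 on the opposite strand. Sf3a2 overlaps Plekhj1 on the opposite strand, at a mean of 20.6 FPKM, and Hnrnpd a faint antisense gene at 1.14 FPKM.

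The annotation gives many of these genes transcripts that end in nonsense-mediated decay. In GENCODE M21, 9 of 10 tested SR genes (90.0%), 10 of 20 hnRNP genes, 4 of 11 Sm and snRNP-specific genes (36.4%), 1 of 9 SF3 genes (11.1%) and both U2AF genes have at least 1 such transcript. Over 10983 protein-coding genes tested the share was 29.6%. Retained-intron transcripts are annotated for 40 of the 52 members (76.9%) and 60.3% of all. Of the genes that moved in both OGD groups, Srsf5, Srsf6, Srsf9, Hnrnpd, Hnrnpdl and Snrpa1 have a decay transcript and Hnrnph1 has none. How much of each FPKM came from such transcripts cannot be read from gene sums.

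The rest of the splicing pathway was described by 195 genes in 12 lists, of which 179 were tested. In OGP against control, 11 were higher and 30 lower, or 22.9% against 29.8% of all genes. By limma 0 were DEGs, with 2 by voom, against 12.1% of all genes by limma. At an unadjusted p under 0.05, 17 were higher and 41 lower, beside 2613 higher and 2912 lower of all 13245 genes. The tri-snRNP gave 3 higher and 5 lower of 18, with Prpf8 (-0.40, adjusted p = 0.0126), Usp39 (-0.39, adjusted p = 0.00523) and Eftud2 (-0.38, adjusted p = 0.00577) lower. Prpf8 forms the catalytic core, Eftud2 is the GTPase that drives its rearrangement and Usp39 is needed to load the tri-snRNP. Of 15 snRNP assembly genes, 5 fell and 1 rose. Prmt5, which methylates Sm proteins before assembly, fell by 0.46 (adjusted p = 0.0013), and Gemin5, which delivers the snRNA, by 0.43 (adjusted p = 0.00443), whereas Gemin8 rose by 0.47 (adjusted p = 0.00762). The Lsm proteins, kin of the Sm ring, gave 2 higher and 1 lower of 10, with Lsm5 at 0.54 and Lsm8 at 0.45 up and Lsm11, of the U7 snRNP for histone mRNAs, at -0.54.

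The step factors Slu7 (0.39, adjusted p = 0.00312) and Plrg1 (0.37, adjusted p = 0.00572) rose and the helicase Dhx8 (-0.38, adjusted p = 0.00377) fell in OGP, among 3 higher and 2 lower of 27. Zmat5 of the U12-type spliceosome rose by 0.46 (adjusted p = 0.038), the single call of 8. Luc7l fell by 0.53 (adjusted p = 0.00277), the single call among 9 U1 genes, and Ddx46 by 0.23 (adjusted p = 0.0304), the single call among 14 genes of the U2 list. In the exon junction complex, Eif4a3, its RNA clamp, fell by 0.58 (adjusted p = 0.00694), 1 of 3 lower of 13. Upf1, Upf2 and Smg1, which act in nonsense-mediated decay, fell by 0.55, 0.42 and 0.43, and were the 3 calls among 10 genes (30%, beside 29.8% of all genes). Of 30 other regulators, 9 fell and none rose (30%, beside 16% of all genes lower), among them Pspc1 (-0.57), Sfpq (-0.32) and Ptbp1 (-0.26). Tra2a, an SR-like activator, rose by 0.44 (adjusted p = 0.0196), the single call of 14 SR-related genes.

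SR proteins are controlled by phosphorylation. None of 12 tested kinases and import factors of SR proteins passed in OGP against control or in OGE against OGP by limma. At an unadjusted p under 0.05, 1 was higher and 1 lower in the former and 6 higher and 1 lower in the latter. Of all 13245 genes, 2613 were higher and 2912 lower in the former and 2375 and 2226 in the latter. In OGE against control 3 passed, all higher, or 25% beside 24.8% of all genes (11.7% higher). Clk1 had 10.7, 6.47 and 7.03 FPKM in control, 9.47, 9.87 and 11.6 in OGP and 13.8, 13.4 and 11.5 in OGE, with a log2 difference of 0.67 (adjusted p = 0.0196). Clk4 gave 0.67 (adjusted p = 0.0137) and Srpk1 0.38 (adjusted p = 0.0224). The differences of OGP from control for these 3 were 0.36, 0.36 and 0.15, and those of OGE from OGP were 0.31, 0.31 and 0.23. Control replicate 1 was the highest control for each of them.

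In OGE against OGP, 19 of the 179 other splicing genes were higher and 10 lower, or 16.2% against 20.8% of all genes. Of them 2 were DEGs, Srrm2 and Rsrp1, whereas 8.12% of all genes were. Srrm2, a large RS-rich protein of nuclear speckles, had 37.0, 30.4 and 28.8 FPKM in OGP and 49.4, 46.7 and 49.7 in OGE, a log2 difference of 0.60 (adjusted p = 0.00982). Rsrp1 gave 0.59 (adjusted p = 0.00412). Both were near control in OGP, at -0.09 and -0.13. Prpf8 (0.44), Dhx8 (0.44), Sfpq (0.41), Ptbp1 (0.38), Srrm1 (0.36), Gemin5 (0.31), Prmt5 (0.26) and Upf1 (0.42) were higher in OGE than in OGP, and Plrg1 (-0.36) and Lsm5 (-0.54) were lower. In OGE against control 9 of the 179 were higher and 8 lower, or 9.50% against 24.8% of all genes, with Clk1 and Clk4 up and Pspc1 down as DEGs. Without control replicate 1 the other splicing genes gave 3 DEGs in OGP against control, 2 in OGE against OGP and 8 in OGE against control. In that fit the share of all genes that passed at any fold was also higher in every comparison, as given above.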

How the data were processed

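RNA-seq was performed on 9 libraries of HT22 cells, 3 each of control, OGP and OGE. The authors selected mRNA with poly-T beads, sequenced paired ends, mapped them to mm10 (HISAT2 2.0.5) and used featureCounts for counting. The deposited values are FPKM made by the authors; the FPKM tool and the strand setting are not given in the sources used. FPKM depend on the gene model and the make-up of each library.

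FPKM times gene length gave whole multiples of a single step to within 0.1 for 100% of values, which gave the reads. Genes averaging 0.5 FPKM or more went into limma 3.58.1 under R 4.3.3 (trended prior variance) on log2(FPKM + 0.5), all 9 libraries in a single model, with Benjamini-Hochberg adjustment over 13245 genes. The added 0.5 shrinks the folds of low genes. The DEG thresholds are those of the study. The script was tested on simulated data.

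The libraries are biological replicates by the paper's wording, which does not name separate cultures, so p-values measure only the spread between these samples, which may be technical. Members, lists and tests were chosen with earlier results of these data known. Named with values were members called at 1.5-fold, the 10 smallest p per comparison, the extremes of level and change in each role, genes under the filter and up to 3 genes per other list; any further gene was chosen after its values were seen. The RefSeq promoter window nearest to the gene's start in the table was used, and Python 3.11.15 with pandas 2.3.3 and matplotlib 3.10.9 read annotation and drew plots. No column of per-sample values was left unused. Alternatives were other pseudocounts, filters, scalings, a robust prior, 6 libraries at a time, a replicate block, voom on the recovered reads and leaving out each library.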

Additional observations from a re-analysis of the deposited data

How the results depend on the processing

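With 3 libraries per group, a single library moved the counts of members. Leaving out each library in turn gave 8 to 29 members passing in OGP against control (15 with all libraries), 0 to 10 in OGE against OGP (3) and 5 to 21 in OGE against control (8), and 1 to 7 DEGs in OGP against control (3) and 1 to 6 in OGE against control (2); the highest count of each came without control replicate 1. The other splicing genes gave 0 to 4 DEGs for OGP with control, 0 to 4 for OGE with OGP and 1 to 8 in OGE against control. Among the alternatives, only the fit without control replicate 1 stands above beside a share of all genes, at any fold. The other counts here, DEGs among them, are not read as results on the members or the other splicing genes. Without control replicate 2, the only DEG in OGP against control was Srsf5. With control replicate 1 and OGE replicate 3 both left out, chosen after seeing the data, 31, 8 and 24 members passed in the same order of comparisons, with 7, 0 and 11 DEGs, and 3, 4 and 13 other splicing genes were DEGs. The fit of 6 libraries at a time gave 9 members for OGP with control and 9 for OGE with OGP, and quantile normalization gave 7 in the latter. Voom on the recovered reads gave 5 DEGs among members in OGP against control and 2 among other splicing genes. The latter numbered 2 with a pseudocount of 0.1 and 1 with quantile normalization in OGP against control, and for OGE with OGP 1 with a pseudocount of 1, 1 with median-of-ratios scaling and 4 with quantile normalization. Snrpg in OGE against control, 0.03 with all libraries, was -0.33 to 0.24 with a library left out, -0.33 being without control replicate 1, and -0.38 without it and OGE replicate 3, and the cause was not tested.

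The replicate numbers are shared by the groups, but nothing says that they pair samples. Same-numbered samples deviated with r of -0.18, -0.05 and -0.11 between OGP and control, -0.09, 0.07 and -0.10 between OGE and OGP and 0.14, -0.12 and 0.32 between OGE and control. With the replicate number as a block, 0 members passed in OGE against OGP. Scaling alternatives moved the median of all genes by less than 0.1 on the log2 scale. Quantile normalization moved the median of the members from 0.03 to 0.12 in OGE against OGP. In OGE against control it moved that median from -0.07 to 0.03. Of 3276 recomputed log2 fold changes of single members, 85 lost a call, 93 gained one, 2 reversed with a call and 29 without a call changed sign by at least their SE. The other 3067 stayed on their side of the threshold, and any that changed sign did so by less than their SE and without a call.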
